A study of Canis lupus familiaris with 7 samples.

Results

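The vessel genes examined here were PECAM1, VWF, CDH5, KDR, TEK, ESAM, CLDN5 and FLT1, which mark endothelial cells, together with the angiogenic ligand genes VEGFA and ANGPT2. Members were taken by name, as every non-control probe of the array whose gene name was one of these 10 symbols. All 10 genes were found, with 17 of the 43603 probes on the array. RNA of 7 primary canine osteosarcomas, a bone tumor, had been hybridized to a one-color Agilent canine array, 1 array per tumor, to look for expression that goes with loss of DLG2, a gene for a membrane scaffold protein. The labels give 4 tumors as DLG2 deleted and 3 as DLG2 wild type. Deleted tumors 1 to 4 came from dogs aged 8, 9, 6 and 7 years with the sex labels MC, FS, MC and FS, and the breeds were a German Shepherd and Collie cross, a Rottweiler cross, a Greyhound and a Great Pyrenees. Wild-type tumors 1 to 3 came from dogs aged 12, 10 and 8 years with the labels FS, FS and MC, and the breeds were a Boxer, a Labrador Retriever cross and a Bull Mastiff. No treatment is named, and the tissue was whole tumor, so fewer vessel cells and less RNA per vessel cell cannot be told apart in any value below.

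Each array had 30280 to 34538 probes well above its background, and the 32309 probes that were so on at least 3 arrays were tested. Of the bone markers RUNX2, ALPL, BGLAP and COL1A1, all 4 were well above background in all 7 tumors. The probe for DLG2 itself had log2 intensities of 10.37, 11.44, 10.51 and 10.84 in deleted tumors 1 to 4 and of 10.91, 12.03 and 11.75 in wild-type tumors 1 to 3, so the groups overlapped. Wild-type tumors 1 and 2 were the most alike pair of arrays, with a Pearson r of 0.987 over probes against 0.935 to 0.966 in the other 20 pairs, and were kept as 2 tumors because the labels give them as different dogs. Wild-type tumor 2 and deleted tumors 2 and 3 shared a slide. All arrays were scanned on 1 day. The image extraction times in the file headers, split at gaps over 60 minutes, gave 2 sessions, which the labels do not name. Session 1 held these 3 tumors and deleted tumor 4.

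Endothelial cells line blood vessels. They are held together by adhesion proteins such as PECAM1 (CD31), VE-cadherin (CDH5), claudin 5 (CLDN5) and ESAM, and they store von Willebrand factor (VWF), which tethers platelets. VEGFA, a secreted growth factor that many cells release when oxygen is low, acts on endothelial cells through the receptor kinase KDR (VEGFR2), while FLT1 (VEGFR1) binds VEGFA tightly and can act as a decoy. TEK (TIE2) is the receptor for the angiopoietins, and ANGPT2 is the angiopoietin that endothelial cells themselves release when vessels are remodeled. PECAM1 is also present on platelets and leukocytes, FLT1 on monocytes, and VWF in platelets, so these genes are not fully specific to vessels.

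The array reads each gene through 60-base probes. Those of PECAM1, KDR, FLT1 and VEGFA whose coordinates run over more genome than their 60 letters are shown first, with the ANGPT2 probe, because the results turn on these 5 genes. All are written 5′ to 3′ with canFam2 coordinates.
PECAM1 A_11_P081191 (minus strand, chr9:15314387-15316200): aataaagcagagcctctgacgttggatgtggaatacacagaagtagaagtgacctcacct
PECAM1 A_11_P201873 (minus strand, chr9:15320230-15320885): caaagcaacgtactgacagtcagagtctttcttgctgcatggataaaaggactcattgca
KDR A_11_P0000026672 (minus strand, chr13:50375162-50376987): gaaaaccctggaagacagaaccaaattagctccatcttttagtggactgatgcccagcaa
FLT1 A_11_P053511 (plus strand, chr25:14273491-14273601): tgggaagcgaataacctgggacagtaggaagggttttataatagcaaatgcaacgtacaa
VEGFA A_11_P0000019893 (plus strand, chr12:15224402-15226702): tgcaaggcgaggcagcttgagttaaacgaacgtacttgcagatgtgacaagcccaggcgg
ANGPT2 A_11_P050916 (minus strand, chr16:61342212-61342271): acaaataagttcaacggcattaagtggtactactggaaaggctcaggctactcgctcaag
The 2 CDH5 probes are shown because they are not separate measurements. The capitals mark the run of 40 letters that both hold.
CDH5 A_11_P108496 (minus strand, chr5:85844038-85844097): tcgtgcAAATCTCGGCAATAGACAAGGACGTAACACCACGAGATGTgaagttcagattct
CDH5 A_11_P194523 (minus strand, chr5:85839520-85839538): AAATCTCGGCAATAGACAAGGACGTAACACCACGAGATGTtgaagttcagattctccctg
The coordinates that the files give for these 2 probes conflict with their shared letters, since they lie apart and the second spans 19 bases for 60 letters, so the position of the second is in doubt. In the same way PECAM1 probes A_11_P119336 and A_11_P0000040507 share a run of 47 letters, so the 17 probes hold fewer than 17 separate readings.

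Vessel genes had higher means in the deleted tumors, but tumors of a group were spread widely and no member passed the test. Of the 17 probes, 15 probes of 8 genes were bright enough to be tested, and 14 of these 15 had a higher mean in deleted tumors, where 51% of all tested probes did. The test required a limma p below 0.05 and, after Benjamini-Hochberg adjustment over all tested probes, below 0.1. By this rule 0 of the 15 member probes and 0 of all 32309 probes (0%) were called by limma, with adjusted p for the members between 0.643 and 0.966. At an unadjusted p below 0.05 there were 2 member probes, FLT1 A_11_P053511 and VEGFA A_11_P0000019893, both higher in deleted tumors, against 7.27% of all probes in either direction, 3.1% higher and 4.18% lower in deleted tumors. The same 2 probes were the ones at which the 4 deleted tumors did not overlap with the 3 wild-type tumors, against 8.15% of all probes, 3.9% with the deleted tumors higher and 4.25% with them lower. The test type named in the study's methods was also run, with equal variances, on the values normalized here and without a batch term. It called 0 probes and had 1 member probe, VEGFA A_11_P0000019893, at an unadjusted p below 0.05. The paper reported differentially expressed probes after RMA normalization and a batch correction. That processing was not repeated, so the 0 found here does not bear on the paper's list.

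**Figure D1:**
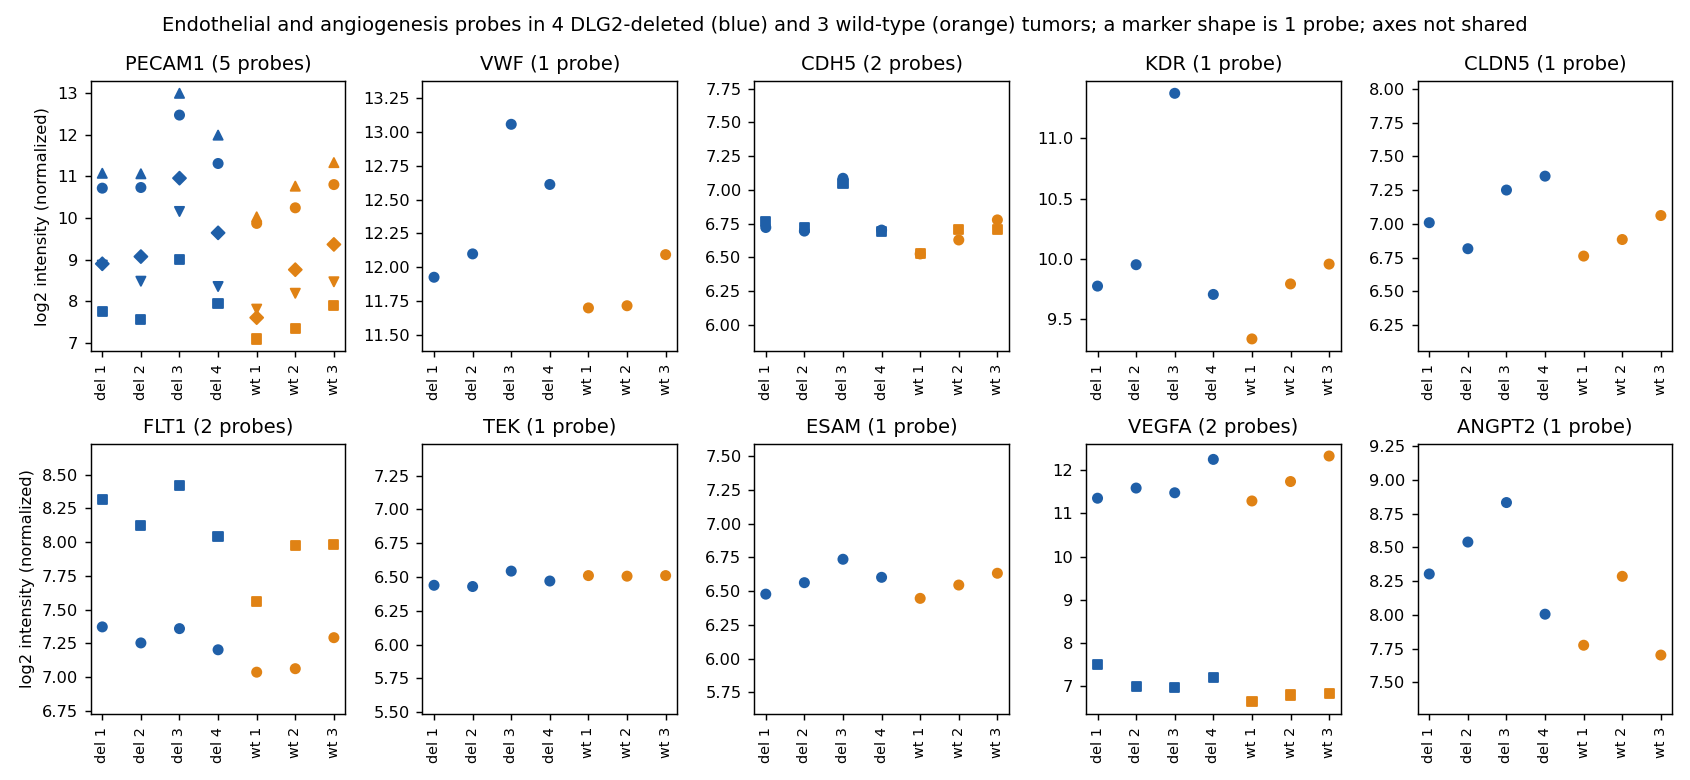
Normalized log2 intensity (vertical axis, set separately for each gene) of the 17 probes in each tumor, with 4 DLG2-deleted tumors in blue, 3 wild-type tumors in orange and a marker shape for each probe of a gene. All 5 PECAM1 probes and the KDR and VWF probes were highest in deleted tumor 3 and lowest in wild-type tumor 1, while TEK and ESAM lay flat near the background.

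PECAM1, the adhesion protein CD31, had the largest difference among the members. Its brightest probe, A_11_P119336, had log2 intensities of 11.07, 11.06, 12.99 and 11.99 in deleted tumors 1 to 4 and of 10.03, 10.76 and 11.33 in wild-type tumors 1 to 3. Deleted tumors 3 and 4 lay above all wild-type tumors, while deleted tumors 1 and 2 lay below wild-type tumor 3. Deleted tumors averaged 11.78 (SD 0.92, n = 4) and wild-type tumors 10.705 (SD 0.65, n = 3), a difference of 1.07 (95% interval -0.22 to 2.37), or 2.10-fold, with a limma adjusted p of 0.752. Permuting the labels over all 35 possible splits, an exact permutation test, gave p = 0.171 (two-sided), where the smallest p that 4 against 3 tumors allow is 0.0571. The other 4 PECAM1 probes differed by 0.62 to 1.07, so all 5 went the same way, and each was highest in deleted tumor 3 and lowest in wild-type tumor 1. Without deleted tumor 3 the difference of A_11_P119336 was 0.67, and without wild-type tumor 3 it was 1.38. The mean centered level of leukocyte genes, which can also carry PECAM1, was 0.90 in deleted tumor 3 and between -0.47 and 0.21 in the other tumors, and its part in the PECAM1 values was not tested.

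VWF, the clotting protein stored in endothelial cells, followed PECAM1 with a smaller spread. Its probe (A_11_P0000019660, plus strand, chr27:42002493-42002552) stood at 11.92, 12.10, 13.06 and 12.61 in deleted tumors 1 to 4 and at 11.70, 11.71 and 12.09 in wild-type tumors 1 to 3. Only deleted tumor 1 lay inside the wild-type range, and deleted tumor 2 lay just above its upper end. The difference was 0.59 (95% interval -0.09 to 1.27), with a limma adjusted p of 0.734 and an exact permutation p of 0.143 (two-sided). Without deleted tumor 3 the difference was 0.38, and with normexp and 75th percentile scaling it was 0.28, or -0.036 relative to the median of all probes. Platelet genes, the other known source of VWF, had a median difference of -0.28 over 4 genes, which turned to 0.36 (0.048 relative to all probes) under that scaling and was -0.058 with slide as a fixed block. Their mean centered level lay between -0.18 and -0.05 in deleted and between 0.06 and 0.23 in wild-type tumors. Of these genes, GP9 and ITGB3 were well above background in 6 tumors each, and GP1BA differed by -0.06. The part of platelets in the VWF values was not tested.

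The junction genes CDH5 and CLDN5 had differences whose size depended on the background correction and the scaling, and ESAM was not measured above background in most tumors. CDH5, the cadherin of endothelial junctions, had log2 intensities at A_11_P194523 of 6.77, 6.72, 7.05 and 6.69 in deleted tumors 1 to 4 and of 6.53, 6.71 and 6.70 in wild-type tumors 1 to 3, and it was not well above background in wild-type tumor 1. Only deleted tumor 3 stood clear of the rest. The difference was 0.16 (SE 0.12, limma adjusted p = 0.857), and the overlapping probe A_11_P108496 gave 0.16 (SE 0.13) as well. The difference of A_11_P194523 was 0.66 and 0.88 on Agilent's processed signal (75th percentile scaling and quantile normalization). With normexp and 75th percentile scaling it was 0.92, or 0.60 relative to the median of all probes. Without deleted tumor 3 it was 0.080. CLDN5, a tight junction protein, stood at 7.01, 6.82, 7.25 and 7.35 in deleted and at 6.76, 6.88 and 7.06 in wild-type tumors, with deleted tumor 4 the highest of the 7. Its difference was 0.20 (SE 0.16, limma adjusted p = 0.862). In the same 3 alternatives it was 0.53, 0.66 and 0.82, the last being 0.50 relative to all probes. Without deleted tumor 4 it was 0.12. ESAM, an adhesion molecule of endothelial cells and platelets, was well above background in deleted tumor 3 and wild-type tumor 3 alone, with log2 intensities between 6.48 and 6.74 in deleted and between 6.45 and 6.63 in wild-type tumors.

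Of the receptors, FLT1 had separate groups at 1 of its 2 probes, KDR overlapped, and TEK was near background. KDR, the main signaling receptor for VEGFA, had log2 intensities of 9.78, 9.95, 11.37 and 9.71 in deleted tumors 1 to 4 and of 9.34, 9.79 and 9.96 in wild-type tumors 1 to 3. Deleted tumor 3 stood 1.41 above the next tumor, and the other deleted tumors lay within the wild-type range. The difference of 0.50 (95% interval -0.51 to 1.52, limma adjusted p = 0.881) was 0.12 without deleted tumor 3, and -0.0035 relative to the median of all probes with normexp and 75th percentile scaling. FLT1, which binds the same ligand, had at A_11_P053511 log2 intensities of 8.32, 8.12, 8.42 and 8.04 in deleted tumors and of 7.56, 7.97 and 7.98 in wild-type tumors. Here all 4 deleted tumors lay above all 3 wild-type tumors, although deleted tumor 4 did so by a small margin. The difference was 0.39 (95% interval 0.02 to 0.75), or 1.31-fold, with an unadjusted p of 0.0401 and an adjusted p of 0.673 in limma, and the exact permutation test gave its smallest p, 0.0571 (0.300 adjusted over the 15 probes tested). It was 0.25 without wild-type tumor 1. The other FLT1 probe (A_11_P0000022693, plus strand, chr25:14395128-14395187) overlapped between the groups and differed by 0.17 (SE 0.10). It differed by 0.39 and 0.51 on the processed signal, and by 0.63 with normexp and 75th percentile scaling (0.32 relative to all probes). TEK, the angiopoietin receptor, was well above background in 0 of 4 deleted tumors and in 1 of 3 wild-type tumors, wild-type tumor 3, with log2 intensities between 6.43 and 6.54, and no fold or direction is given for this receptor.

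**Figure D2:**
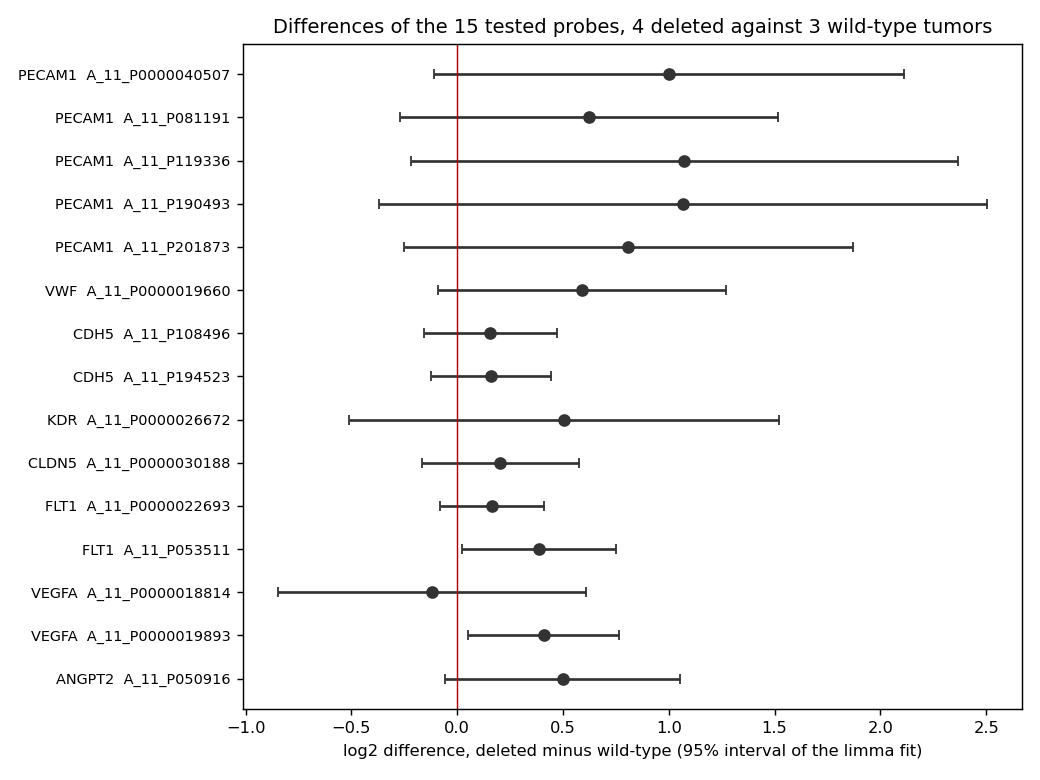
Log2 difference (deleted minus wild-type) of the 15 tested probes with the 95% interval of the limma fit, 4 against 3 tumors. The intervals of 13 probes include 0, and those of FLT1 A_11_P053511 (0.02 to 0.75) and VEGFA A_11_P0000019893 (0.05 to 0.76) lie just above it.

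The 2 VEGFA probes, which read the gene at different places, did not give the same order of tumors. The probe A_11_P0000019893, whose 60 letters run over 2301 bases of genome, had log2 intensities of 7.50, 6.99, 6.98 and 7.20 in deleted tumors 1 to 4 and of 6.65, 6.80 and 6.83 in wild-type tumors 1 to 3. All deleted tumors lay above all wild-type tumors, with deleted tumor 1 the highest. The difference was 0.41 (95% interval 0.05 to 0.76), or 1.33-fold, with an unadjusted p of 0.0301 and an adjusted p of 0.643 in limma and an exact permutation p of 0.0571. Its size depended on the processing, at 1.13 and 1.29 on the processed signal and 0.19 with slide as a fixed block. With normexp and 75th percentile scaling it was 0.95, or 0.63 relative to all probes. The other probe (A_11_P0000018814, plus strand, chr12:15228074-15228133) stood at 11.35, 11.59, 11.48 and 12.25 in deleted and at 11.29, 11.74 and 12.33 in wild-type tumors, with wild-type tumor 3 and deleted tumor 4 the highest. It differed by -0.12 (95% interval -0.84 to 0.61, limma adjusted p = 0.966), and by 0.15 without wild-type tumor 3. Within a tumor the first probe minus the second, centered over the 7 tumors, ran from -0.32 to 0.87 in deleted and from -0.77 to 0.08 in wild-type tumors. These ranges overlap, and the exact permutation test of this contrast gave p = 0.200. The first probe was well above background in all 4 deleted and all 3 wild-type tumors but was dim. Its 6.65 in wild-type tumor 1 was close to the 6.53 of CDH5 A_11_P194523, which was not well above background there. So the dim VEGFA probe had a higher mean in deleted tumors while the bright probe had no settled direction, and single VEGFA transcripts were not analysed here.

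ANGPT2, the ligand that endothelial cells release during vessel remodeling, had log2 intensities of 8.30, 8.54, 8.83 and 8.01 in deleted tumors 1 to 4 and of 7.78, 8.29 and 7.70 in wild-type tumors 1 to 3. Of the deleted tumors, tumors 1 to 3 lay above all wild-type tumors and tumor 4 lay below wild-type tumor 2. The difference was 0.50 (95% interval -0.06 to 1.05), or 1.41-fold, with a limma adjusted p of 0.720 and an exact permutation p of 0.114. Unlike PECAM1 and KDR, ANGPT2 had no tumor that stood far from the others, and its difference was 0.36 without deleted tumor 3.

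The highest and lowest tumors were the same at most of the tested probes. Deleted tumor 3 was the highest of the 7 tumors at 11 of the 15 tested probes, and at 10 of the 12 probes of the endothelial markers. Wild-type tumor 1 was the lowest at 14 of the 15 probes, and at all 12 of the endothelial markers. These 12 probes belong to 6 genes, and 5 of them are PECAM1 probes. How often the same tumors were highest or lowest over all tested probes was not counted, so these counts are not shown to be particular to vessel genes. CLDN5 was highest in deleted tumor 4, whereas for KDR that tumor lay below wild-type tumors 2 and 3. The SD over the 7 tumors had a median of 0.42 over the member probes, against 0.26 over all tested probes, and 6 member probes, those of PECAM1 and KDR, lay above the 90th percentile of all probes. As a single value for the vessel genes, 1 probe per gene (the brightest) was taken for the 6 tested endothelial markers and centered over the tumors. The mean was -0.07, -0.09, 0.81 and 0.18 in deleted tumors 1 to 4 and -0.56, -0.24 and -0.03 in wild-type tumors 1 to 3. The groups overlapped, since wild-type tumor 3 lay above deleted tumors 1 and 2. The median difference over these 6 genes was 0.45, with 6 of 6 higher in deleted tumors, and the median over all 11115 genes was 0.01. Without deleted tumor 3 it was 0.24, the lowest value with a tumor left out.

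**Figure D3:**
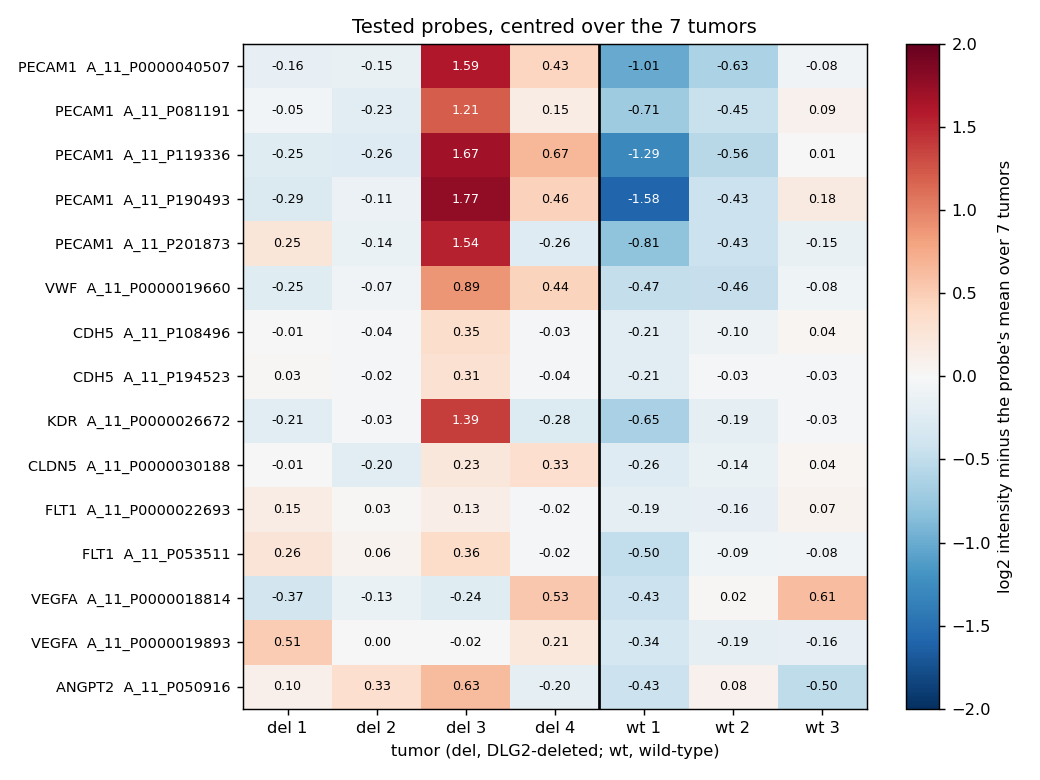
Log2 intensity of the 15 tested probes minus each probe's mean over the 7 tumors (color and printed value), with the deleted tumors left of the black line and the wild-type tumors right of it. The column of deleted tumor 3 holds the highest values of PECAM1, VWF, CDH5, KDR and ANGPT2, and the VEGFA probe A_11_P0000018814 departs from it at -0.24.

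The wild-type dogs were older on the whole, and some vessel probes were ordered by age. In order of age, PECAM1 at A_11_P119336 stood at 12.99 at 6 years, 11.99 at 7 years, 11.33 and 11.07 at 8 years, 11.06 at 9 years, 10.76 at 10 years and 10.03 at 12 years. At this probe every step to an older dog was a step down, and A_11_P081191 had the same order. The other PECAM1 probes broke it. At A_11_P0000040507 and A_11_P190493 the dog of 9 years stood above deleted tumor 1, from a dog of 8 years. At A_11_P201873 the dog of 7 years stood at 8.35, below 8.87 and 8.47 at 8 years and 8.48 at 9 years. VWF at A_11_P0000019660 stood at 13.06, 12.61, 12.09 and 11.92, 12.10, 11.71 and 11.70 in the same order, with the dog of 9 years as the exception. KDR did not follow this order, with deleted tumor 4, from a dog of 7 years, at 9.71. With age as a covariate in limma, 8 of the 15 probes were higher in deleted tumors in place of 14, the median over the endothelial markers was -0.032 and PECAM1 A_11_P119336 differed by -0.074. FLT1 A_11_P053511 (0.16), VEGFA A_11_P0000019893 (0.37) and ANGPT2 (0.47) stayed above 0, with 0 called. Also above 0 were PECAM1 A_11_P0000040507 (0.0845) and A_11_P201873 (0.12), VWF (0.094), CDH5 A_11_P194523 (0.0047) and FLT1 A_11_P0000022693 (0.054). The wild-type dogs were the 2 oldest and 1 of the 2 aged 8 years, so with 7 tumors age and DLG2 status can be told apart only in small part.

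**Figure D4:**
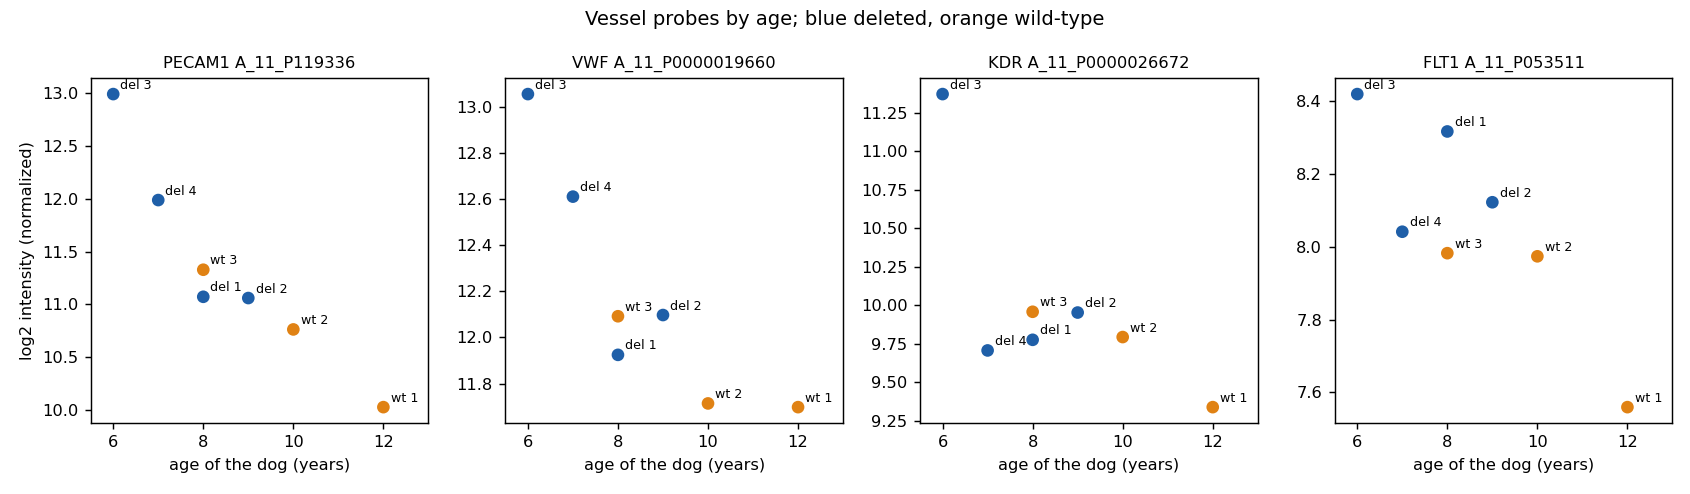
Log2 intensity of PECAM1, VWF, KDR and FLT1 (1 probe each) against the age of the dog in years, deleted tumors in blue and wild-type tumors in orange, with separate vertical axes. PECAM1 steps down from 12.99 at 6 years to 10.03 at 12 years, and for KDR the tumors other than deleted tumor 3 lie between 9.34 and 9.96.

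The direction held within each extraction session and the shared slide for all tested probes but VEGFA A_11_P0000018814. In session 1, with 3 deleted tumors and 1 wild-type tumor, 15 of the 15 tested probes were higher in the deleted tumors, and in session 2, with deleted tumor 1 against wild-type tumors 1 and 3, 14 of 15 were. The size was not the same. PECAM1 A_11_P119336 differed by 1.25 in session 1 and by 0.39 in session 2, VWF by 0.87 and 0.03 and KDR by 0.55 and 0.13, whereas FLT1 A_11_P053511 differed by 0.22 and 0.55. Within the shared slide, deleted tumors 2 and 3 against wild-type tumor 2, 14 of 15 probes were higher, and the only lower one was VEGFA A_11_P0000018814 at -0.21. These 3 tumors belong to session 1, so the slide is not a separate comparison. Session 2 includes wild-type tumor 1, the lowest tumor at 14 of the 15 probes.

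Other genes of the vessel wall were read from lists, with 1 probe per gene, beside the whole array, where 52.8% of 11115 genes had a higher mean in deleted tumors, 7.59% were at an unadjusted p below 0.05 (3.64% higher in deleted tumors) and 0% were called. Of 34 further endothelial genes, 21 were tested, of which 19 had a higher and 2 a lower mean in deleted tumors, with a median of 0.22, 0 at an unadjusted p below 0.05 and 0 called. The smallest p values of the list were those of ESM1 (endocan, secreted by sprouting endothelium), with a difference of 1.32 (SE 0.60, limma adjusted p = 0.711), and of PTPRB (the endothelial phosphatase VE-PTP), with 0.71 (SE 0.37, adjusted p = 0.755). ESM1 stood at 10.06, 9.91, 9.69 and 11.90 in deleted and at 9.16, 9.74 and 8.32 in wild-type tumors, so deleted tumor 3, the highest for PECAM1, was the lowest deleted tumor for ESM1 and overlapped with wild-type tumor 2. Without deleted tumor 3 the list had 14 genes higher and 7 lower and a median of 0.06, and with age as a covariate 12 higher and 9 lower. Its median was 0.38 and 0.39 on the processed signal. With normexp and 75th percentile scaling it was 0.49, or 0.17 relative to all probes. Of 5 lymphatic endothelial genes 3 were tested, 2 with a higher mean, and 0 were at an unadjusted p below 0.05. LYVE1, a hyaluronan receptor of lymphatic vessels and of some macrophages, differed by 0.41 (SE 0.19, adjusted p = 0.720) with separate groups, and CCL21, a chemokine of lymphatic endothelium, by 0.74 (SE 0.52).

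Mural cells, the pericytes and smooth muscle cells around vessels, gave 11 tested genes of 13, of which 11 had a higher mean in deleted tumors, with a median of 0.30, 0 at an unadjusted p below 0.05 and 0 called. ABCC9 and KCNJ8, the subunits of a potassium channel of pericytes, differed by 0.26 (SE 0.15) and 0.30 (SE 0.19). Without deleted tumor 3 this list had 7 genes higher and 4 lower and a median of 0.09. Of 11 matrix and inhibitor genes of angiogenesis 9 were tested, 8 with a higher mean, with a median of 0.22 and 0 at an unadjusted p below 0.05. THBS1, an inhibitor of angiogenesis, differed by 0.93 (SE 0.66), and COL4A2, a chain of vessel basement membrane, by 0.62 (SE 0.58). Without wild-type tumor 3 this median was 0.06, without deleted tumor 3 it was 0.082, and on the processed signal it was 0.60 to 0.70. Of 10 Notch and ephrin genes of vessels 6 were tested, 5 with a higher mean, with a median of 0.06 and 0 at an unadjusted p below 0.05. On the processed signal with 75th percentile scaling 3 were higher and 3 lower with a median of -0.011, and with normexp and 75th percentile scaling 6 were higher with a median of 0.72, or 0.40 relative to all probes. HEY1 and HEY2, targets of Notch, differed by -0.31 (SE 0.17) and 0.38 (SE 0.40).

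The ligands, co-receptors and modulators of the VEGF and angiopoietin pathways did not lean to a side. Of 15 listed genes 13 were tested, of which 7 had a higher and 6 a lower mean, with 1 at an unadjusted p below 0.05 and 0 called. This was VEGFB, a ligand of FLT1, which stood at 8.07, 7.61, 8.07 and 8.26 in deleted and at 7.57, 7.51 and 7.57 in wild-type tumors. Its groups were separate, with deleted tumor 2 close to the wild-type values, and it differed by 0.45 (SE 0.16, limma adjusted p = 0.633). The median of the list, 0.19, was -0.13 without wild-type tumor 1 and -0.05 without wild-type tumor 3, -0.15 once session entered the fit, and -0.12 with normexp and 75th percentile scaling once the shift of all probes was subtracted.

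Hypoxia response genes were read because VEGFA is one of the genes that low oxygen induces. Of 16 genes 14 were tested, of which 11 had a higher and 3 a lower mean in deleted tumors, with a median of 0.32, 2 at an unadjusted p below 0.05 and 0 called. ANKRD37 stood at 9.77, 10.12, 10.37 and 10.46 in deleted and at 8.87, 9.11 and 9.42 in wild-type tumors, with separate groups and a difference of 1.05 (SE 0.21, limma adjusted p = 0.434). ADM, the vessel-dilating peptide adrenomedullin, stood at 9.21, 9.17, 9.87 and 10.17 in deleted and at 8.54, 8.88 and 8.67 in wild-type tumors, again separate, with a difference of 0.91 (SE 0.27, adjusted p = 0.566). Unlike the endothelial lists, this list kept its median without deleted tumor 3, at 0.35. It was 0.18 without deleted tumor 2, and -0.10 with normexp and 75th percentile scaling once the shift of all probes (0.32) was subtracted.

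Markers of other cells moved with some of these values, and their part in them was not tested. Macrophage genes (7 tested of 9) had 3 higher and 4 lower means and a median of -0.12. This median has no settled direction, since it ran from -0.41 without deleted tumor 3 to 0.44 without wild-type tumor 2. It was 0.39 with normexp and 75th percentile scaling (0.076 relative to all probes), 0.21 with slide as a fixed block and -0.65 with session in the fit. Their mean centered level was lowest in deleted tumor 1 and highest in deleted tumor 3, at 1.29, with wild-type tumors between -0.34 and 0.40. MRC1, a scavenger receptor of macrophages and of some endothelium, differed by 0.63 (SE 0.38) and CD68, a lysosomal protein of macrophages and osteoclasts, by -0.74 (SE 0.53). Of 8 leukocyte genes 6 were tested, with 5 higher and 1 lower means, a median of 0.26, and 2 at an unadjusted p below 0.05, the T cell receptor subunits CD3D (1.98, SE 0.37, limma adjusted p = 0.434) and CD3E (0.51, SE 0.17, adjusted p = 0.591). The leukocyte median was 0.14 without deleted tumor 3, 0.49 without deleted tumor 4 and 0.80 to 0.91 on the processed signal. The mean centered level of the 6 genes ran from -0.42 to 0.90 in deleted and from -0.47 to 0.04 in wild-type tumors. Platelet genes (4 tested of 7) had 4 lower means and a median of -0.28, among them the integrin chains ITGA2B (-0.41, SE 0.20) and ITGB3 (-0.28, SE 0.16). Adipocyte genes (5 tested of 6) had 5 higher means and a median of 0.82. Their mean centered level was 2.70 in deleted tumor 4 and between -0.61 and -0.30 in the other 6 tumors, and without deleted tumor 4 the median was 0.07. ADIPOQ, the fat hormone adiponectin, differed by 1.64 (SE 1.57) and LPL, the lipoprotein lipase that sits on vessel walls of fat and muscle, by 1.09 (SE 0.59). Deleted tumor 4 was also the highest for CLDN5 and the second highest for 4 of the 5 PECAM1 probes and for VWF. Osteoblast genes (4 tested of 8) had 4 lower means and a median of -0.78 (-0.40 without wild-type tumor 3, -0.44 without deleted tumor 2 and -1.18 without deleted tumor 4), with BGLAP (osteocalcin) at -1.45 (SE 0.94) and ALPL (bone alkaline phosphatase) at -1.27 (SE 1.03), and skeletal muscle genes (6 tested of 8) had a median of 0.08, with TNNT3 at 0.32 (SE 0.18) and MYL1 at 0.18 (SE 0.26), both of the contractile filament.

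**Figure D5:**
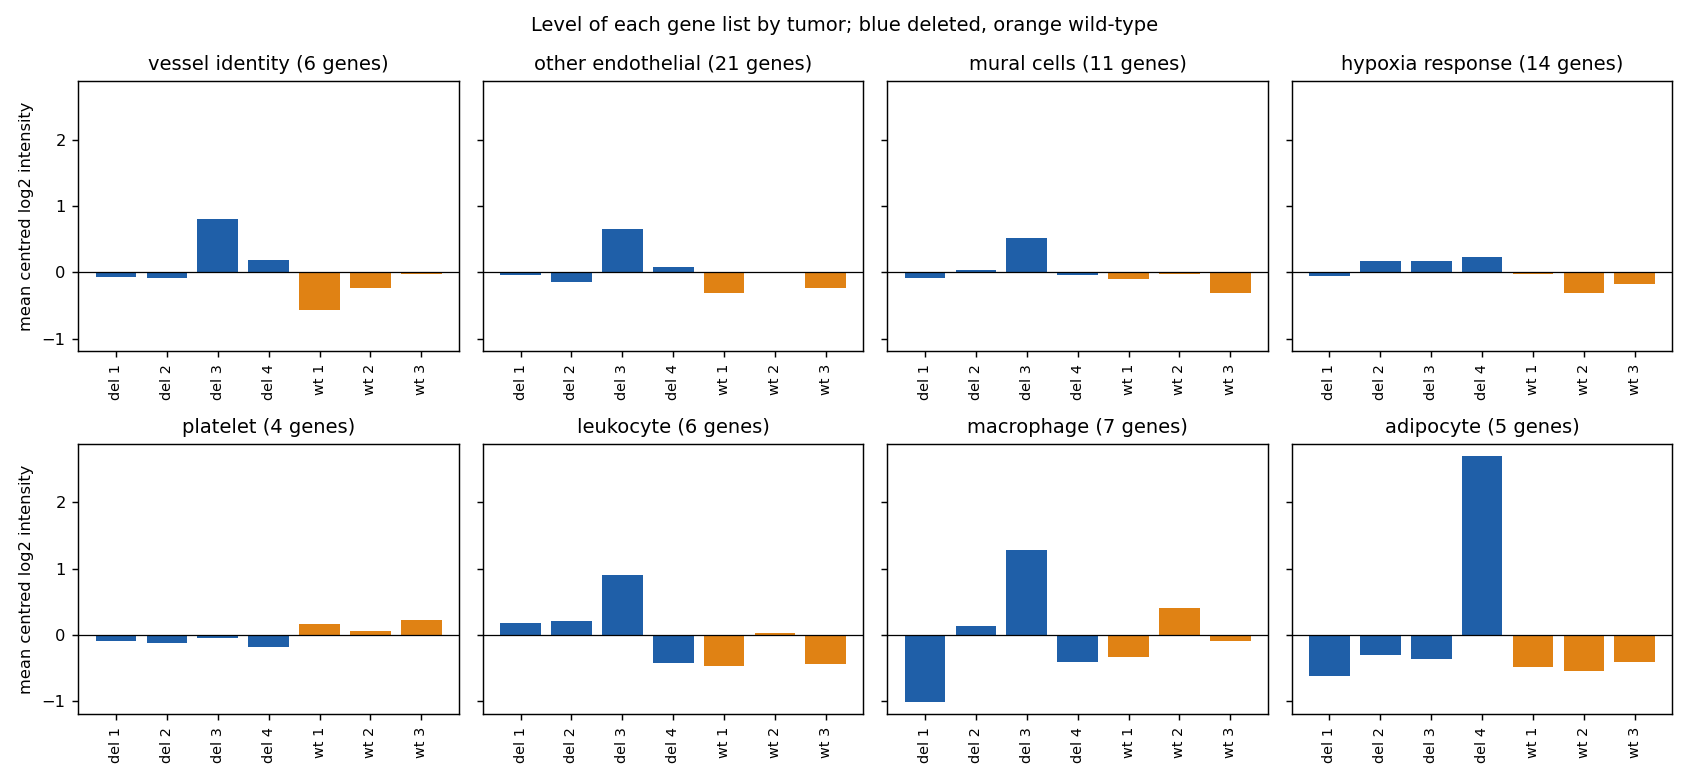
Mean log2 intensity of the tested genes of 8 lists, each gene centered over the 7 tumors (vertical axis), by tumor, deleted in blue and wild-type in orange. The endothelial, mural, leukocyte and macrophage lists are highest in deleted tumor 3, and the adipocyte list stands at 2.70 in deleted tumor 4.

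To see which other genes followed the vessel markers over the 7 tumors, the centered profile of each of 11080 genes was compared with the mean profile of the 6 endothelial markers by the root mean square distance on the log2 scale, which had a median of 0.47. The 5 nearest genes were NRP1 (0.10), CAPN1 (0.11), CCN2 (0.12), USHBP1 (0.12) and PTPMT1 (0.12). NRP1, the co-receptor neuropilin 1 that VEGFA binds, stood at 9.66, 9.44, 10.47 and 9.80 in deleted and at 9.06, 9.51 and 9.82 in wild-type tumors. It was highest in deleted tumor 3 and lowest in wild-type tumor 1 like the mean profile, which follows from how it was picked. This distance counts differences in size as well as in shape. Of the members, VWF was closest to the mean profile at 0.15, while PECAM1, with the same highest and lowest tumors but a wider range, lay at 0.49 and VEGFA, by its brighter probe, at 0.51.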

How the data were processed

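RNA of 7 canine osteosarcomas was measured on 1-color (Cy3) Agilent canine arrays. Per the file headers, the deposited files hold the spot and local background intensity on a linear scale as written by Agilent Feature Extraction 10.7.3.1, with a processed intensity that this program corrected and detrended within each array, and probe positions on canFam2. The study's methods name RMA normalization across arrays with a correction for unnamed batches. Here the mean spot intensity was corrected by normexp (offset 50) and quantile-normalized with limma 3.58.1 in R 4.3.3, leaving out 144 outlier values. Probes well above background on at least 3 arrays were kept. Groups were compared with limma (lmFit and eBayes, two-sided) without covariates, and single probes also with an exact permutation test over the 35 splits. For a value per gene the brightest probe was taken, and 1845 probes without a symbol were named through RefSeq (UU_Cfam_GSD_1.0). The number of arrays limits the precision, and limma p-values set a difference against the spread between these tumors, moderated over all probes. The fit was tested on simulated data with independent noise at each probe. Calling of changed probes was required there only for a change larger than any member difference. The simulation thus does not show that differences of the members' size could be called.

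Members and lists were chosen with earlier results of these data known. Genes named outside the members were those of each list at an unadjusted p below 0.05, or else the 2 with the smallest p, and the 5 nearest in profile. Alternatives were other background corrections, scalings and filters, an equal-variance t-test, limma options and array weights. Slide, session, sex label or age entered the fit in turn, each tumor was left out, and wild-type tumors 1 and 2 were averaged.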

Additional observations from a re-analysis of the deposited data

Results flagged for a closer look

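For 30 probes and lists, the distance from the highest or lowest deleted tumor to its nearest neighbor was divided by the range of the 4 deleted tumors. Dixon's 95% limit, which about 1 in 20 groups exceeds by chance, was exceeded by 4. The 30 include several probes of the same gene and lists that hold member probes, so this rate gives no expected count for them. CDH5 A_11_P108496 in deleted tumor 3 had a gap of 0.932 of the range (7.09 against 6.70 to 6.72), and the overlapping probe A_11_P194523 had 0.796, within the limit. KDR in deleted tumor 3 had a gap of 0.852 (11.37 against 9.71 to 9.95). The adipocyte list in deleted tumor 4 had a gap of 0.905, and the skeletal muscle list in deleted tumor 3 had a gap of 0.892 (a mean centered level of 0.52 against -0.18 to -0.10).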

How the results depend on the processing

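Member probes called stayed at 0 under all 22 alternatives, as did called genes of the other lists. Of 328 member probe differences under alternatives, 320 kept their direction and 8 turned. Of these, 6 turned with age as a covariate, namely PECAM1 A_11_P081191 (-0.12), A_11_P119336 (-0.074) and A_11_P190493 (-0.22), CDH5 A_11_P108496 (-0.051), KDR (-0.14) and CLDN5 (-0.069), and 2 were VEGFA A_11_P0000018814, at 0.019 with array weights and 0.15 without wild-type tumor 3 (-0.37 to 0.15 with tumors left out). With age the median over the endothelial markers was -0.032 and 8 member probes were higher in deleted tumors; with tumors left out these lay between 0.24 and 0.55 and between 14 and 15. Member probes with separate groups numbered 5 with normexp and 75th percentile scaling. With tumors left out they numbered between 2 and 10, with 5 without deleted tumor 4 and 10 without wild-type tumor 3. The share over all tested probes was not counted under these settings, and groups separate more easily with fewer tumors. These counts are therefore not shown to be particular to the members. With normexp and 75th percentile scaling the median of all probes lay 0.32 higher, and relative to this shift 12 of 15 member probes were higher. Over all probes, calls were 10 and 4 on the processed signal with 75th percentile scaling and quantile normalization, 23 with normexp and 75th percentile scaling, 1 without background correction, 4 with trend and robust options, 8 with array weights, 1 with slide as a random block and between 0 and 46 with tumors left out, the latter without wild-type tumor 3. No paired analysis was possible because the labels give no numbers that pair tumors across groups. Among the members, signal near background limits TEK, ESAM and CDH5, and the VEGFA probe A_11_P0000019893 was dim as well.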
